A study of Arabidopsis arenosa x Arabidopsis thaliana and Arabidopsis thaliana and Arabidopsis arenosa with 5 samples.

Results

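The COR (cold-regulated) and dehydration-responsive effector genes encode proteins made late in the response of the plant to cold, drought and salt. They were chosen by name, as the 10 Arabidopsis loci RD29A (AT5G52310), RD29B (AT5G52300), COR15A (AT2G42540), COR15B (AT2G42530), KIN1 (AT5G15960), KIN2 (AT5G15970), COR47 (AT1G20440), ERD10 (AT1G20450), RD20 (AT2G33380) and RD22 (AT5G25610), of 32313 genes in the tables. All 10, with 14 transcripts, were listed for both parents, and 8 of them, with 11 transcripts, were listed for the allotetraploids. KIN1 and RD29B have no allele values in the files used here.

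Rosette leaves were sampled ahead of bolting from 5 groups of tetraploid plants, and their mRNA was sequenced. The plants grew with 16 h of light at 22 °C and 8 h of dark at 20 °C. The labels name no cold or drought treatment. The parents were autotetraploid A. thaliana (ecotype Landsberg erecta, 3 to 4 weeks old) and autotetraploid A. arenosa (Care-1, 6 to 7 weeks old), so species and plant age cannot be told apart between them. The allotetraploids, which carry both genomes, were a resynthesized F1, a line of generation F8 and A. suecica, all 6 to 7 weeks old. A. suecica is a natural allotetraploid of the same species pair, so its genomes were not inherited from the parents sampled here. The parents and the F1 had 3 replicate columns each, and F8 and A. suecica had 1 library each, so for those 2 groups sizes are given with no test. Nothing in the labels ties the columns to separate plants, so a p-value measures only the spread between columns, which may be technical.

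Cold raises the CBF (DREB1) transcription factors, which bind the DRE element in the promoters of COR genes. Drought and salt raise abscisic acid (ABA), whose bZIP factors bind the ABRE element, and many effector genes carry both elements. The proteins are mostly hydrophilic: COR15A and COR15B protect chloroplast membranes during freezing, COR47 and ERD10 are dehydrins, KIN1 and KIN2 are small alanine-rich proteins, RD20 is a calcium-binding caleosin of lipid droplets, and RD22 is a BURP-domain protein induced by ABA through MYC2. RD29A and RD29B are widely used as reporters of the DRE and ABRE routes.

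Among the members, 8 form 4 tandem pairs on 1 strand each: RD29B and RD29A on chromosome 5 (TAIR10.1, chr5:21237021-21239531 and chr5:21240717-21243644, plus strand), KIN1 and KIN2 on chromosome 5 (chr5:5209717-5210826 and chr5:5211719-5212743, plus strand), COR15B and COR15A on chromosome 2 (chr2:17708593-17710433 and chr2:17710441-17712330, minus strand) and COR47 and ERD10 on chromosome 1 (chr1:7084409-7086873 and chr1:7087903-7089606, minus strand). RD20 (chr2:14144831-14146555, minus strand) and RD22 (chr5:8914122-8916856, minus strand) stand alone. The annotated genes of a pair lie 1185, 892, 7 and 1029 bases apart, in the order given. Identity of the coding sequences within a pair was 80.5% for RD29B and RD29A, 83.8% for COR15B and COR15A, and 82.3% for COR47 and ERD10, and KIN1 and KIN2 shared 191 of 201 bases. The KIN pair is the closest: the coding sequences have the same length of 201 bases, and the proteins of 66 residues are 92.4% identical. They are shown here because reads of one gene could be credited to the other; capitals mark the 10 bases at which they differ, in the A. thaliana reference (TAIR10.1, RefSeq annotation, 5′ to 3′).
KIN1: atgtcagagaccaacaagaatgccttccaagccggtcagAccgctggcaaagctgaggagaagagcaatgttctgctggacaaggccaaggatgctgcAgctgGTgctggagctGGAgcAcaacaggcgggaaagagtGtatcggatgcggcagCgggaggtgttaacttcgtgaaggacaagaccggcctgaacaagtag
KIN2: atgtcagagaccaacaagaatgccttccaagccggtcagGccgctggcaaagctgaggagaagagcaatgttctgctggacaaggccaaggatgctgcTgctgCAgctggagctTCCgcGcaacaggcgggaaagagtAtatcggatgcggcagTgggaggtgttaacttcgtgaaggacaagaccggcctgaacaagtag
The longest identical run in these coding sequences was 58 bases, below the shortest read length of 60 bases that the labels give. Of the 60-base windows of the transcripts, none was shared exactly by the partners of any of the 4 pairs. With up to 2 mismatches, 10.3% of the KIN1 windows and 11.4% of the KIN2 windows matched the partner, against 0.52% and 0.54% for COR15B and COR15A and 0 for the other pairs. COR15B shared 26.8% of its windows exactly with its other neighbour, AT2G42520, so its level is less certain if the transcripts used for the RPKM overlap likewise. All these windows were cut from TAIR10.1 transcripts. The submitters' processing notes name TAIR 9, whose transcripts were not compared.

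The promoters of 4 members are shown because they carry the most copies of the cores of these elements. Each is the 300 bases before the annotated gene start in the A. thaliana reference (TAIR10.1, RefSeq annotation, gene strand, 5′ to 3′), and capitals mark the DRE core CCGAC and the ABRE core ACGTG on either strand. They are chr5:21240417-21240716 for RD29A, chr5:21236721-21237020 for RD29B, chr2:17712331-17712630 for COR15A and chr2:14146556-14146855 for RD20.
RD29A: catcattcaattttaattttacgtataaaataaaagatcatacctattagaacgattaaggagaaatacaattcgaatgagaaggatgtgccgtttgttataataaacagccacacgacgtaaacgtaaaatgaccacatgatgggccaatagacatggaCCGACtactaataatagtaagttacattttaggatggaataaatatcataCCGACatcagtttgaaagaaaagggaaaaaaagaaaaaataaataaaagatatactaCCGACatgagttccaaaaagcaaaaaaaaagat
RD29B: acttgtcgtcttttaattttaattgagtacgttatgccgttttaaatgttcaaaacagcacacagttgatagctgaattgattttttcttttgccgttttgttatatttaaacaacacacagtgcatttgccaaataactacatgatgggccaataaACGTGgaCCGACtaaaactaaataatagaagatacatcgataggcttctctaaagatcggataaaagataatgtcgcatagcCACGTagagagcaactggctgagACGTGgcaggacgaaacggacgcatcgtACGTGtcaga
COR15A: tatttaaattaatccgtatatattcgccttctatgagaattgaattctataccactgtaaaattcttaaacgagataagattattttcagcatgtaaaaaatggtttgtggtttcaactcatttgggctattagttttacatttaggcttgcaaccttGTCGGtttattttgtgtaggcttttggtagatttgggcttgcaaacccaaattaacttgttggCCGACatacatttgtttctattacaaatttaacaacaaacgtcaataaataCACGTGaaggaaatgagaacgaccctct
RD20: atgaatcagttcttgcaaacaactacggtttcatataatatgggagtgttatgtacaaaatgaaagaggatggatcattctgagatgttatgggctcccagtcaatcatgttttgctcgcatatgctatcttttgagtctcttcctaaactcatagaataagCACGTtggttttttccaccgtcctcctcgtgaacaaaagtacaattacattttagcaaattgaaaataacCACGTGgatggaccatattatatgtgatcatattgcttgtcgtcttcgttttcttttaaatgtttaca
RD29A held 3 DRE cores and 0 ABRE cores in this window, RD29B held 1 DRE core and 4 ABRE cores, COR15A held 2 of each and RD20 held 3 ABRE cores. The palindrome CACGTG holds the ABRE core on both strands and counts as 2, as in COR15A and RD20. The DRE core was in 4 of 10 members (RD29A, RD29B, COR15A and COR15B), against 13.9% of 27443 promoters. The COR15B window lies inside the annotated COR15A gene but for 7 bases, and its DRE core is within that gene. The ABRE core was in 6 of 10 (RD29B, COR15A, KIN1, KIN2, RD20 and RD22), against 25.6%. The evening element AAAATATCT, a site of clock factors, was in 0 of 10, against 2.8% of promoters. These are matches of letters in the reference of a parent species and not bound sites, and the A. arenosa promoters were not analysed here. Bases outside the window, including those after the annotated start, were not searched, so a gene without a core here may carry one nearby.

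**Figure D1:**
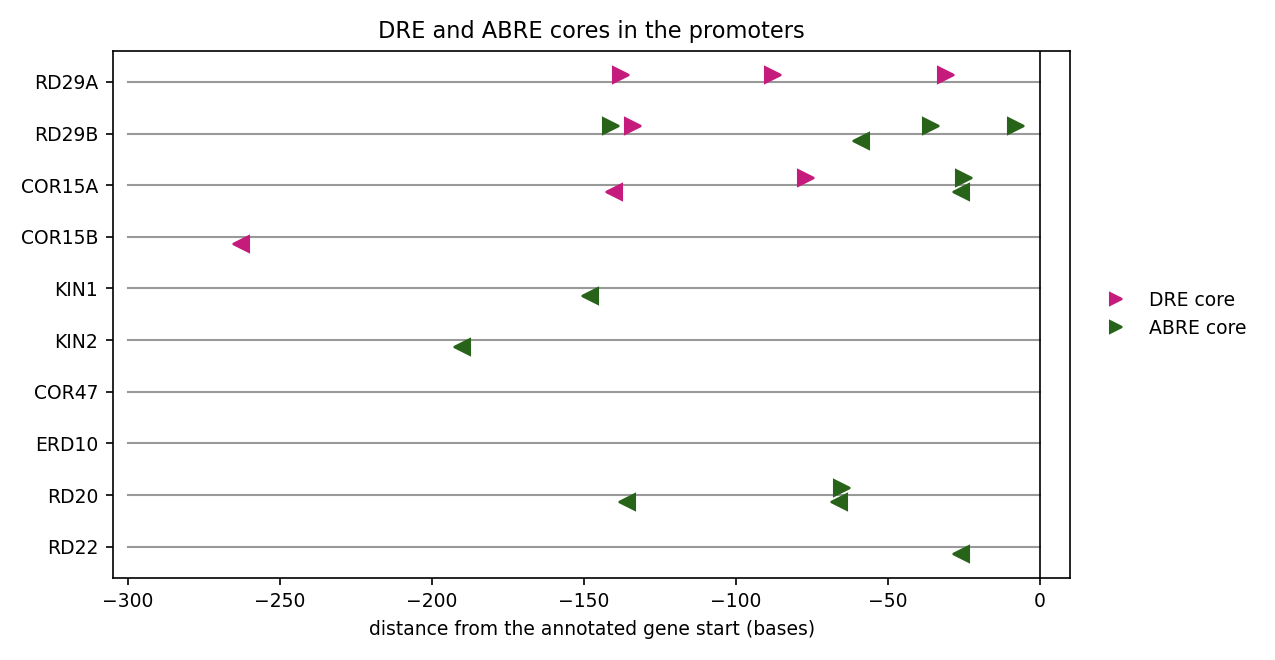
Positions of the DRE core (pink) and the ABRE core (green) in the 300 bases before the gene start, by gene; the x axis is the distance from the annotated start in bases and arrows point along the strand of the motif. RD29A has 3 DRE cores, RD29B has 4 ABRE cores beside 1 DRE core, and COR47 and ERD10 have neither core in this window.

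Levels are RPKM, read density per kilobase of transcript scaled to the size of the library, which can be compared between genes. In A. thaliana, KIN2 was the highest at 256 ± 177 RPKM (SD, n = 3), followed by RD22 at 199 ± 220 and COR47 at 140 ± 20.3, and these 3 did not differ beyond their spread. RD29B was the lowest at 0.514 ± 0.307 RPKM, below every other member in each column. In A. arenosa the order began with COR47 at 314 ± 176 RPKM and KIN2 at 280 ± 203, and RD29B was again the lowest at 14.3 ± 11.5, although its columns overlapped those of COR15A, at 24.6 ± 24.4. In the F1, where a level is the sum of both alleles, COR47 led at 651 ± 422 RPKM, and RD20 and COR15A had the lowest means of the 8 genes listed, both 56.2 RPKM.

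Replicates stood apart for these genes, so results are given with this in view. All 10 members had their lowest A. arenosa value in replicate 1, where 48.0% of all 12739 genes compared were lowest. COR15A has 2 transcripts, of which the second is used here. With the first, its A. arenosa values were 4.62, 2.51 and 17.5 RPKM, lowest in replicate 2. All 8 listed members had their lowest F1 value in replicate 1, where 40.2% of 10221 genes were lowest. RD29A is an example: it measured 12.8, 134 and 114 RPKM in A. arenosa replicates 1 to 3 and 33.0, 254 and 289 RPKM in the F1. Its range across the A. arenosa columns, 3.29 on the log2 scale, was wider than that of 99.1% of genes. RD20 and RD22 varied much less in A. arenosa, with ranges of 0.36 and 0.16 beside a median of 0.55 for all genes. In the F1 the range of RD20 was 2.82, wider than that of 99.4% of genes, and that of RD22 was 0.25. In A. thaliana 6 of 10 members were lowest in replicate 2, where 21.1% of 12739 genes were lowest, and 2 in each of the other columns.

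Ribosomal RNA units held 59.6% of the summed RPKM of A. arenosa replicate 1 and 0.233% to 2.56% of the other parental columns. Once columns were scaled to the same sum without these units, A. arenosa replicate 1 was multiplied by 0.993. Of the members, 9 of 10 were still lowest there, as were 7 of 8 in F1 replicate 1. In A. thaliana 3 of 10 were then lowest in replicate 2 and 5 in replicate 3. Clock genes differed between columns too. Replicate 1 was the lowest column for 4 of 8 in A. arenosa, close to the 48.0% of all genes. In the F1 it was lowest for 4 of 5, beside 40.2% of all genes. In A. arenosa these 4 were TOC1, PRR5, GI and ELF4, while CCA1 and PRR9 were highest in replicate 1. PRR5 measured 6.57, 41.9 and 40.4 RPKM in A. arenosa replicates 1 to 3, and PRR9 4.73, 0.666 and 0.535 RPKM. In the F1 the 4 were CCA1, PRR7, PRR5 and GI, while TOC1 was highest in replicate 1. TOC1, an evening gene, measured 6.86, 28.8 and 30.0 RPKM in A. arenosa replicates 1 to 3 but 57.0, 36.7 and 39.9 RPKM in the F1. CCA1, a morning gene, measured 9.91, 4.73 and 8.56 RPKM in A. arenosa and 0.349, 3.18 and 6.55 RPKM in the F1. The labels give no time of harvest, and the part of time of day in any result was not tested. Markers of root (4 of 4), seed (4 of 4) and late senescence (SAG12) were at or near 0 in both parents. Of 5 flower genes, SEP2 alone passed the level filter, at 8.29 to 17.7 RPKM in A. arenosa against 0.0600 to 0.162 in A. thaliana, with AP1 at or near 0. Of 3 senescence genes compared between the parents, 0 were called, at log2 differences of -2.22 for SAG13, -1.46 for SEN1 and 0.34 for SAG21. Summed guard cell markers were 16.9 to 22.8 RPKM in A. thaliana and 17.6 to 22.1 in A. arenosa. Over the guard cell markers listed for the allotetraploids, the sum was 10.4, 17.8 and 21.4 RPKM in F1 replicates 1 to 3, 23.7 in F8 and 9.85 in A. suecica, and its part in the results was not tested.

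**Figure D2:**
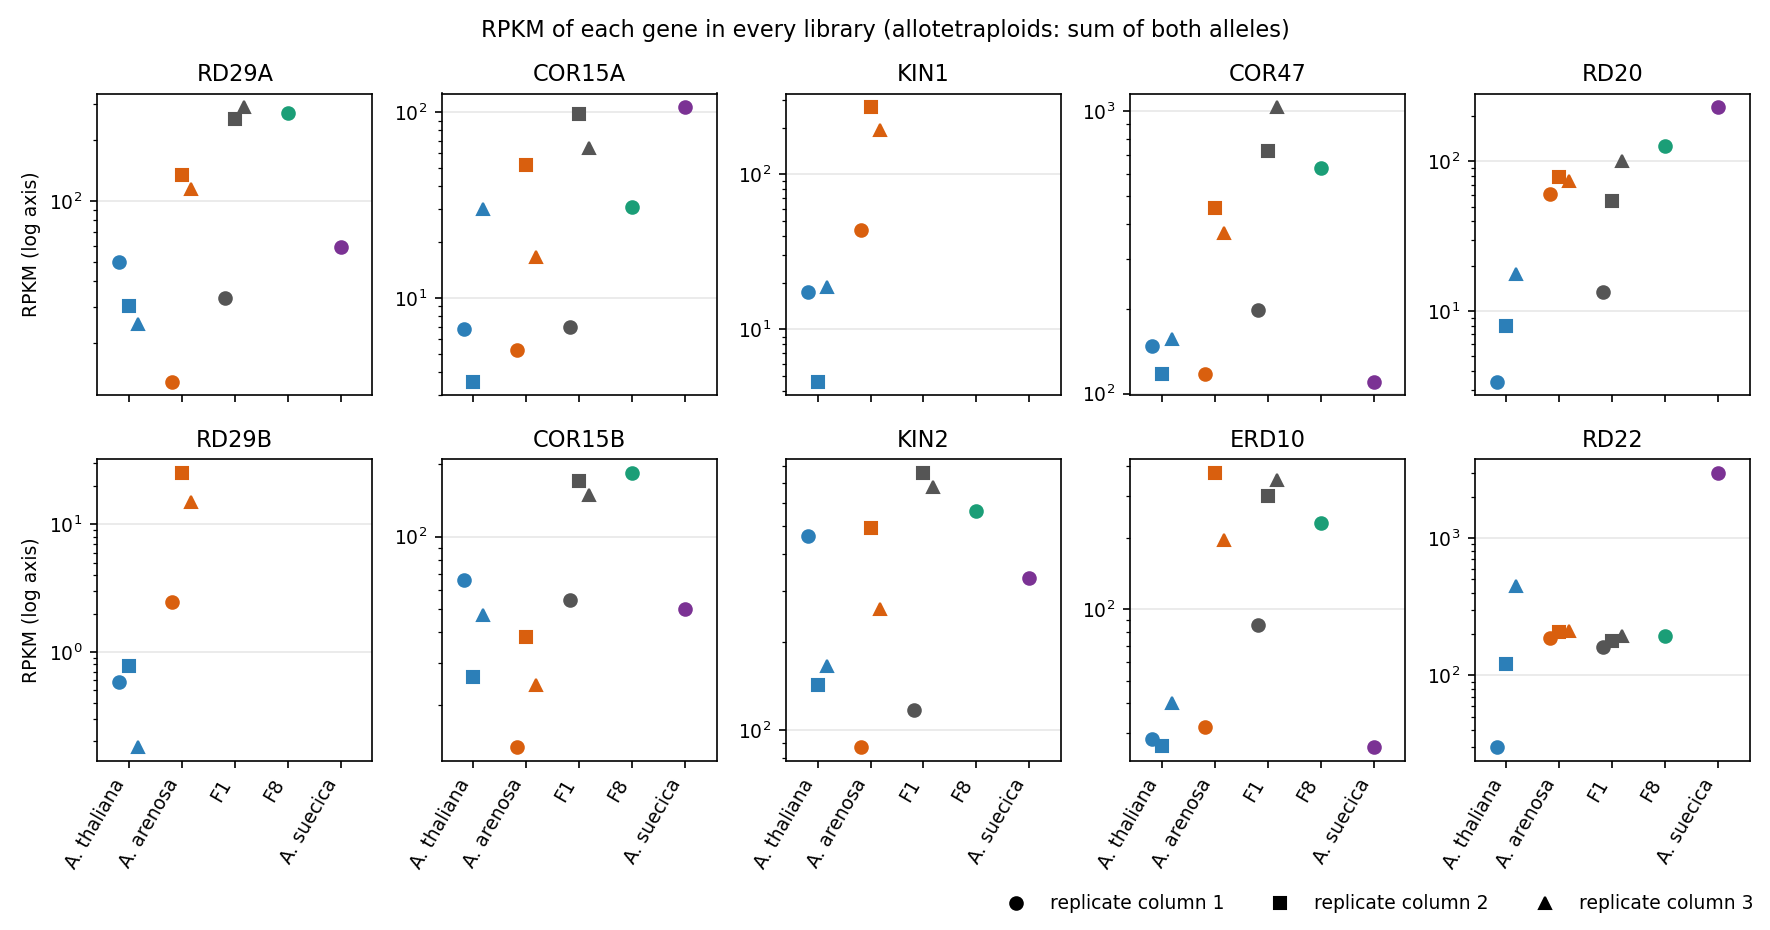
RPKM on a log axis for each of the 10 genes in every library; points are libraries, symbols give the replicate column, and allotetraploid values are sums of both alleles. Circles (replicate 1) sit lowest in A. arenosa and in the F1 for each gene shown there, and RD22 reaches 2995 RPKM in A. suecica.

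The first comparison asked how the genes differ between the parent species. RD29B, KIN1 and RD20 were higher in A. arenosa, and no member was called lower. A call needed a limma adjusted p below 0.05 over all genes and a difference of 2-fold or more on log2(RPKM + 1), a scale that understates differences of low genes. The 3 of 10 called higher stand beside 10.7% of 12739 genes, and the 0 of 10 called lower beside 4.22%. The members' median difference was 0.88, and that of all genes was 0.31. Scaling the columns to the same sum moved the median of all genes to -0.14 and the split of calls from 1360 higher and 537 lower to 622 and 599, and 3 of 10 members were called higher there too. As RNA of whole leaves was measured, fewer cells of a type and less RNA per cell cannot be told apart.

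RD29B measured 0.581, 0.783 and 0.179 RPKM in A. thaliana and 2.47, 25.3 and 14.96 RPKM in A. arenosa. The groups did not overlap, and A. thaliana was under 1 RPKM in every column. The log2 difference was 2.93 (SE 0.72, limma adjusted p = 0.0339). KIN1 measured 17.4, 4.60 and 18.8 RPKM in A. thaliana against 43.6, 271 and 193 RPKM in A. arenosa, again without overlap. Its log2 difference was 3.39 (SE 0.79, limma adjusted p = 0.0281). RD20, the caleosin, measured 3.38, 7.93 and 17.7 RPKM against 60.9, 78.2 and 74.2 RPKM, the clearest separation of the set, and its log2 difference was 2.99 (SE 0.50, limma adjusted p = 0.00873).

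The other 7 members were not called. ERD10 measured 28.4, 26.6 and 40.2 RPKM in A. thaliana against 31.9, 376 and 197 RPKM in A. arenosa, where replicate 1 fell within the A. thaliana range. Its log2 difference was 2.07 (SE 0.84, 95% interval 0.06 to 4.07, limma adjusted p = 0.142). COR47, its neighbour, measured 147, 117 and 156 RPKM against 117, 455 and 369 RPKM, a log2 difference of 0.95 (SE 0.55, limma adjusted p = 0.271). The remaining differences were 0.80 for RD29A, 0.80 for COR15A, 0.77 for RD22, 0.02 for KIN2 and -0.88 for COR15B, with limma adjusted p from 0.247 to 0.989. Their intervals are wide: that of KIN2 ran from -1.74 to 1.77, so similar levels are not shown.

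The count of calls depended on single columns. Without A. arenosa replicate 1, 6 of 10 members were called, since RD29A (1.86, limma adjusted p = 0.0271), COR47 (1.55, adjusted p = 0.0474) and ERD10 (3.08, adjusted p = 0.00667) were added. Without A. arenosa replicate 2, A. arenosa replicate 3 or A. thaliana replicate 2, only RD20 was called. RD20 was called under every alternative tried, with limma adjusted p from 0.00152 to 0.0455. RD29B was also lost without A. thaliana replicate 1 (limma adjusted p = 0.0713). KIN1 was also lost with the replicate number as a block (limma adjusted p = 0.0630). COR15A has 2 transcripts that differed most in A. arenosa replicate 2, at 2.51 RPKM for the first and 52.0 for the second, which is used here. With the first, its difference was -0.61 (limma adjusted p = 0.653) in place of 0.80.

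**Figure D3:**
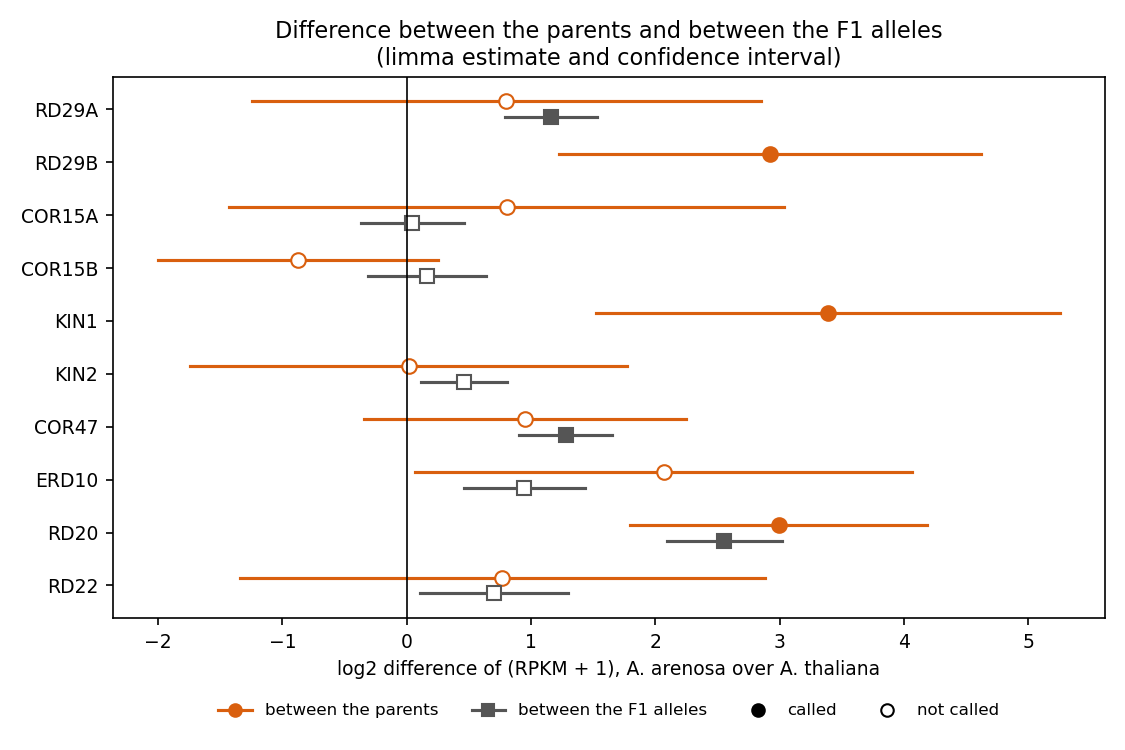
Log2 difference of A. arenosa over A. thaliana for each gene between the parents (circles) and between the F1 alleles (squares), as limma estimates with 95% intervals; filled symbols were called. RD20 was called in both, at 2.99 and 2.55, and the intervals of the F1 alleles are narrower.

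The second comparison set the alleles side by side in the same F1 nucleus. The A. arenosa allele was higher for RD20, COR47 and RD29A, and all 8 listed members had an estimate above 0. The 3 of 8 called higher stand beside 8.47% of 10221 genes, and the 0 of 8 called lower beside 4.42%. The members' median ratio was 0.82 on the log2 scale, and that of all genes was 0.05. No allele value listed for the F1 was 0, so a gene silent on an allele is not among those compared.

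In F1 replicates 1 to 3 the A. thaliana allele of RD20 gave 1.00, 6.11 and 18.2 RPKM, against 12.4, 48.1 and 82.8 RPKM for its A. arenosa counterpart. The A. arenosa allele thus held 92.6%, 88.7% and 82.0% of the total, the most unequal of the set, with a ratio of 2.55 on the log2 scale (SE 0.19, limma adjusted p = 0.00215). COR47 gave 53.6, 245 and 275 RPKM against 144, 479 and 757 RPKM, with the A. arenosa allele higher in each column. On the log2 scale the ratio was 1.28 (SE 0.15, limma adjusted p = 0.00417). RD29A gave 11.0, 73.2 and 85.3 RPKM against 22.0, 181 and 204 RPKM, or 1.16 on the log2 scale (SE 0.15, limma adjusted p = 0.00514). The totals of these genes varied several-fold between columns. The A. arenosa share was 66.6% to 71.2% for RD29A and 66.2% to 73.4% for COR47. That of RD20 fell from 92.6% to 82.0% as its total rose from 13.4 to 101 RPKM.

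ERD10, the other dehydrin of the pair, had a ratio of 0.94 on the log2 scale (SE 0.20, limma adjusted p = 0.0189), under the 2-fold limit. RD22 was at 0.70 (limma adjusted p = 0.0754) and KIN2 at 0.46 (adjusted p = 0.0546). ERD10 and RD22 passed both limits without F1 replicate 3, which took the count to 5 of 8 (1.20 and 1.00, limma adjusted p = 0.00391 and 0.0149). COR15B and COR15A had ratios of 0.17 and 0.05, with 95% intervals from -0.31 to 0.64 and from -0.36 to 0.46, so that a 2-fold allele difference lies outside both intervals. The A. arenosa shares of COR15A were 45.6%, 55.6% and 50.4%.

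Whether the parental difference and the F1 allele ratio differ was tested directly, as their difference. It was called for 0 of 8 members, against 0.558% of 9855 genes, and 0 of 8 had an unadjusted p below 0.05. The estimates ran from -1.04 for COR15B (95% interval -2.20 to 0.12, limma adjusted p = 0.338) to 1.12 for ERD10 (-0.89 to 3.14, adjusted p = 0.555). For RD20, at 2.99 between the parents and 2.55 between the alleles, the difference was 0.44 (95% interval -0.78 to 1.66, limma adjusted p = 0.721). The intervals of RD29A, COR15A, KIN2 and RD22 held a 2-fold difference in both directions, so equality of the parental and allelic differences is not shown. The parents also differed in age and the F1 alleles did not, so age is part of this contrast.

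The third comparison set the F1 total against the mid-parent value, the mean of the parents. A. thaliana was younger than the F1, F8 and A. suecica, so age and hybrid state cannot be told apart in any difference from mid-parent. All 8 members had an estimate above 0, with a median of 1.34 against 0.17 for all genes, yet 0 of 8 were called, beside 0.106% of 10415 genes called higher. At an unadjusted p below 0.05, 2 of 8 passed, COR15B and COR47. COR15B measured 54.5, 170 and 149 RPKM in the F1 against 26.1 to 66.1 RPKM in A. thaliana and 13.4 to 38.2 RPKM in A. arenosa, and F1 replicate 1 overlapped the parents. Its log2 difference from mid-parent was 1.71 (SE 0.46, limma adjusted p = 0.126). COR47 was at 1.36 (SE 0.60, limma adjusted p = 0.276), from 198, 724 and 1032 RPKM in the F1. RD29A, COR15A and ERD10 were at 1.53, 1.39 and 1.33, KIN2 at 0.82, and RD22 and RD20 at 0.14 and 0.10, all in the same fit and with adjusted p from 0.377 to 0.950. On leaving out 1 column these ran from 0.78 to 2.53 for RD29A, 0.69 to 2.50 for COR15A, 0.46 to 1.96 for ERD10 and 0.34 to 1.69 for KIN2, and COR47 from 0.88 to 2.07. With the replicate number as a block, 18 genes in place of 11 were called, and 0 of 8 members.

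The tandem pairs were then contrasted, taking within each column the log2 ratio of (RPKM + 1) of the 2 neighbours. A factor shared by both genes cancels only where both are well above the pseudocount of 1 RPKM, which RD29B in A. thaliana was not. RD29A exceeded RD29B, and KIN2 exceeded KIN1, by much more in A. thaliana than in A. arenosa. Of the 4 pairs, 2 were called, beside 15.8% of 6249 pairs of loci with consecutive identifiers. RD29A over RD29B was 5.00, 4.13 and 4.45 in A. thaliana and 1.99, 2.36 and 2.85 in A. arenosa. The groups did not overlap, and the difference was -2.12 (SE 0.35, limma adjusted p = 0.0129). Without A. arenosa replicate 2 it was -2.10 (limma adjusted p = 0.0590). With a pseudocount of 0.1 RPKM in place of 1 it was -3.37.

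KIN2 over KIN1 was 4.64, 4.68 and 3.07 in A. thaliana and 0.98, 0.86 and 0.43 in A. arenosa, a difference of -3.37 (SE 0.52, limma adjusted p = 0.00944). KIN2 itself measured 142 to 460 RPKM in A. thaliana and 87.1 to 491 RPKM in A. arenosa, and these ranges overlapped, while those of KIN1 did not. Values of both species are listed under A. thaliana transcript identifiers, and no source used here says how reads were divided between such close copies, so the KIN1 and KIN2 levels are uncertain. The exact permutation test over columns gave p = 0.1 for each of these pairs, two-sided, the smallest that 3 columns against 3 allow.

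COR15A over COR15B was -3.11, -2.58 and -0.63 in A. thaliana and -1.20, 0.43 and -0.51 in A. arenosa, overlapping, with a difference of 1.68 (SE 0.75, limma adjusted p = 0.180, exact permutation p = 0.2). Without A. thaliana replicate 3 the difference was 2.42 and was called (limma adjusted p = 0.0301). Both differences depend on the COR15A transcript. In A. arenosa replicate 2 the first measured 2.51 RPKM and the second, used here, 52.0 RPKM, against 38.2 RPKM for COR15B. With the first, the ratio in that column would fall below 0 and both differences would be smaller. ERD10 over COR47 was -2.33, -2.10 and -1.93 against -1.84, -0.27 and -0.91. These columns did not overlap, but the difference of 1.11 (SE 0.46, 95% interval 0.00 to 2.22) was not called (limma adjusted p = 0.149, exact permutation p = 0.1). COR47 was above ERD10 in all 6 parental columns.

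By allele, only the COR15 and dehydrin pairs have values. In the F1, COR15A over COR15B was -2.51, -0.62 and -1.31 for the A. thaliana alleles and -2.81, -0.91 and -1.07 for the A. arenosa alleles. The alleles followed each other column by column, and the difference between their ratios was -0.12 (SE 0.19, 95% interval -0.65 to 0.41, limma adjusted p = 0.671). ERD10 over COR47 was -1.10, -1.36 and -0.89 for the A. thaliana alleles and -1.21, -1.22 and -1.91 for the A. arenosa alleles. The difference was -0.33 (SE 0.29, 95% interval -1.13 to 0.46, limma adjusted p = 0.426). Neither was called (0 of 2), beside 19.4% of 4180 neighbour pairs, and 0 of 2 had an unadjusted p below 0.05.

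**Figure D4:**
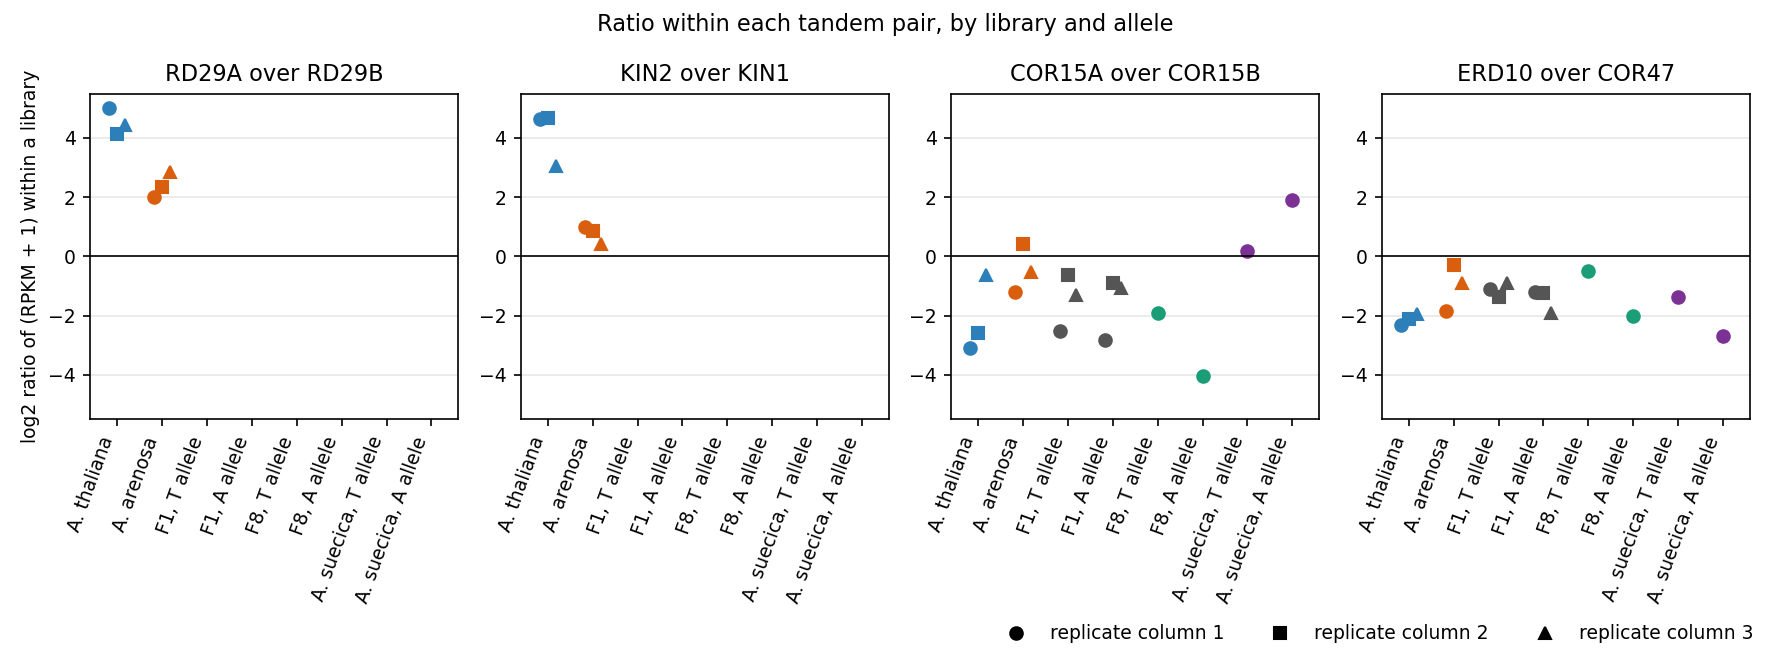
Log2 ratio of (RPKM + 1) of the neighbours within each library, by parent and, for the allotetraploids, by allele (T, A. thaliana; A, A. arenosa); points are libraries and symbols give the replicate column. RD29A over RD29B and KIN2 over KIN1 are lower in every A. arenosa column than in every A. thaliana column, and COR15A over COR15B spans -4.05 in the A. arenosa alleles of F8 to 1.91 in those of A. suecica.

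In F8 the total of 7 of 8 members and the allele ratio of 6 of 8 lay within 2-fold of the F1 mean, with RD20 apart in both and COR15A in the ratio. Most genes lay within 2-fold too: 7.03% of 10254 totals and 7.78% of 9568 ratios did not. Against mid-parent, 7 of 8 members were 2-fold or more higher in F8, beside 6.86% of 10077 genes, with RD22 at 0.26 the exception. With columns scaled to the same sum the count was 5 of 8, since COR15A (0.90) and KIN2 (0.97) came under 2-fold. Against the F1, 1 of 8 was, beside 2.28% of 10254 genes: RD20 at 126 RPKM, against 13.4 to 101 RPKM in the F1, a log2 difference of 1.55. RD29A, at 271 RPKM, lay just under this limit and inside the F1 range of 33.0 to 289 RPKM. F8 and the F1 are compared with the same parents, so these values are not independent.

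Of the allele ratios in F8, 3 of 8 were 2-fold or more in favour of the A. arenosa allele, beside 11.5% of 9673 genes. These were RD20 at 3.66, COR47 at 1.53 and RD29A at 1.25, the genes called in the F1. Only COR15A was 2-fold or more in favour of the A. thaliana allele (1 of 8, beside 7.68% of genes). Its A. thaliana allele gave 27.2 RPKM and its A. arenosa allele 3.83 RPKM, a log2 ratio of -2.54 against -0.20 to 0.32 in the F1. COR15B, its neighbour, gave 105 and 79.1 RPKM from the same alleles, a ratio of -0.40. Within the pair, COR15A over COR15B was therefore -1.91 for the A. thaliana alleles and -4.05 for the A. arenosa alleles of F8. Set against the mean F1 ratio, COR15A (-2.59) and RD20 (1.11) moved by 2-fold or more, 2 of 8, beside 7.78% of 9568 genes. With a single F8 library there is no replicate check.

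The dehydrins also parted in F8: COR47 kept 74.4% from the A. arenosa allele, against 66.2% to 73.4% in the F1, while ERD10 was at 49.8%, against 57.6% to 71.5%. ERD10 over COR47 was -0.48 for the A. thaliana alleles and -2.02 for the A. arenosa alleles. KIN2 and RD22 were near even, at 0.22 and 0.10.

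In A. suecica, the total of 7 of 8 members and the allele ratio of 5 of 8 lay 2-fold or more from the F1 mean. Among all genes this held for 21.8% of 10458 totals and 21.7% of 9565 ratios. RD22 measured 2995 RPKM there, against 29.9 to 447 RPKM in A. thaliana, 187 to 210 RPKM in A. arenosa, 161 to 192 RPKM in the F1 and 192 RPKM in F8. Both alleles contributed, the A. thaliana copy 1149 RPKM and the A. arenosa copy 1846 RPKM, a log2 ratio of 0.68 within the F1 range of 0.10 to 1.34. RD20 measured 230 RPKM and COR15A 106 RPKM, each above every other library. With the first COR15A transcript, A. suecica measured 87.1 RPKM, below F1 replicate 2 at 101.1. ERD10 measured 26.1 RPKM and COR47 110 RPKM, each below every other library but close to the lowest parental columns. These were 26.6 RPKM for ERD10 in A. thaliana replicate 2 and 117 RPKM for COR47 in A. arenosa replicate 1.

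Against the F1, 3 of 8 members were 2-fold or more higher in A. suecica (RD22 at 4.08, RD20 at 2.42 and COR15A at 1.53), beside 12.9% of 10458 genes. Lower by the same measure were 4 of 8 (ERD10 at -2.95, COR47 at -2.25, RD29A at -1.18 and COR15B at -1.14), beside 8.84%. Against mid-parent, RD22 (4.22), COR15A (2.92) and RD20 (2.52) were higher, 3 of 8, beside 15.4% of 10315 genes. ERD10 (-1.62) was lower, 1 of 8, beside 5.06%. With columns scaled to the same sum, COR47 (-1.26 in place of -0.89) was 2-fold or more lower too.

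The allele ratio in A. suecica was 2-fold or more in favour of the A. arenosa allele for 1 of 8 members, RD20 at 1.16, beside 12.9% of 9966 genes. The A. thaliana allele of RD29A gave 39.3 RPKM there and the A. arenosa allele 19.6 RPKM, a ratio of -0.97, where the F1 gave 0.94 to 1.29 and F8 gave 1.25. ERD10 was at -0.86, COR15B at -0.84 and KIN2 at -0.55, and COR47 at 0.46. Relative to the mean F1 ratio, 5 of 8 members moved by 2-fold or more toward the A. thaliana allele (RD29A -2.13, ERD10 -1.81, RD20 -1.39, KIN2 -1.01 and COR15B -1.01), beside 12.0% of 9565 genes. COR15A moved the other way by 0.83. Within the COR15 pair, COR15A was above COR15B for both alleles in A. suecica, at 0.20 for the A. thaliana alleles and 1.91 for the A. arenosa alleles. For the dehydrins the ratio was -1.38 and -2.70.

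**Figure D5:**
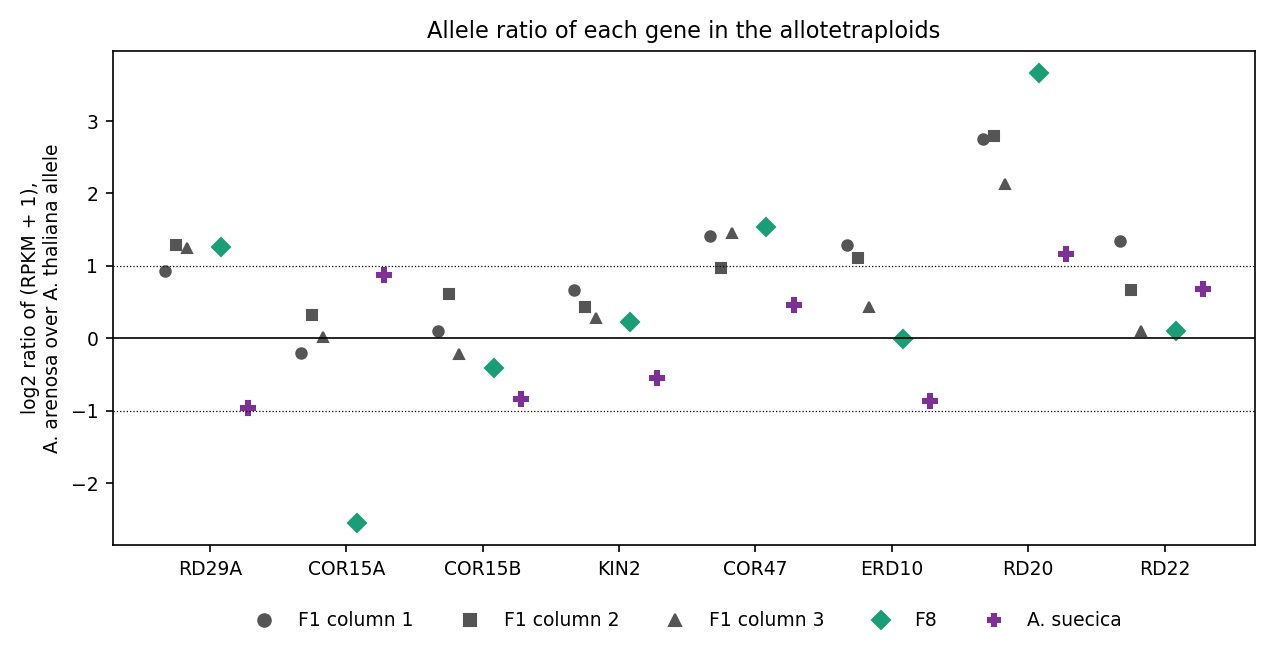
Log2 ratio of (RPKM + 1), A. arenosa over A. thaliana allele, for the 8 genes with allele values; grey symbols are the 3 F1 columns, diamonds F8 and crosses A. suecica, and dotted lines mark 2-fold. COR15A in F8 lies at -2.54, and RD29A, KIN2, ERD10 and COR15B in A. suecica lie below 0.

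The lists of related genes were chosen with earlier results of these data known. Other genes of the cold and ABA pathways did not follow a single direction. Of 16 CBF and ABA regulators compared between the parents, 0 were called higher and 3 lower in A. arenosa, all CBF genes. These counts stand beside 10.7% of 12739 genes called higher and 4.22% called lower. CBF1 measured 7.10 to 10.0 RPKM in A. thaliana against 0.126 to 0.819 in A. arenosa (log2 difference -2.67), CBF2 9.79 to 17.1 against 0.380 to 2.19 (-2.94), and DREB1A, also known as CBF3, 8.39 to 11.7 against 0 to 0.988 (-3.10). The limma adjusted p were 0.00152, 0.00352 and 0.00143. Of the 4 members with a DRE core upstream, RD29A (0.80), COR15A (0.80) and COR15B (-0.88) were not called in the same comparison. RD29B (2.93) was called higher in A. arenosa. A link between the CBF levels and these genes was not tested. The CBF genes have no allele values in the files used here. The highest of this list between the parents was SR1, a calmodulin-binding factor, at 0.44 (limma adjusted p = 0.389).

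In the F1 alleles, 1 of 11 regulators was called: RD26, a NAC factor of the ABA response, at 1.73 (limma adjusted p = 0.0424), and the lowest was ICE1, an activator upstream of CBF, at -0.73. Over all 10221 genes compared between the F1 alleles, 8.47% were called higher and 4.42% lower for the A. arenosa allele. Of 12 ABA synthesis, breakdown and signalling genes, 1 was called higher between the parents, the ABA receptor PYR1 at 1.31 (limma adjusted p = 0.0362), and 0 lower, the lowest being the phosphatase gene HAI1 at -1.07 (adjusted p = 0.0793). The shares of all genes called between the parents were 10.7% higher and 4.22% lower. Of 10 compared between the F1 alleles, 1 was called, the phosphatase PP2CA at 1.19 (limma adjusted p = 0.0171), and ABI1 was the lowest at -0.68.

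Of 21 other cold and dehydration effectors, 3 were called higher in A. arenosa, beside 10.7% of all genes, and 0 lower, beside 4.22%. They were the dehydrin ERD14 (1.52, limma adjusted p = 0.0466), the small membrane protein RCI2B (3.75, adjusted p = 0.000844) and the alcohol dehydrogenase ADH1 (1.03, adjusted p = 0.0168), and the lowest was COR413IM1 at -1.14. Of 16 compared between the F1 alleles, 4 were called higher and 1 lower for the A. arenosa allele, beside 8.47% and 4.42% of all genes. RCI2A was at 2.17, COR413-PM1 at 1.72, the cysteine protease RD21A at 1.53 and ERD14 at 1.20, and COR413IM1, a chloroplast envelope protein of the COR413 family, at -1.98 (limma adjusted p from 0.00342 to 0.0148). Of the 3 relatives of RD20 and RD22 compared between the parents, 1 was called higher, the BURP gene USPL1 (3.13, limma adjusted p = 0.000922), and the caleosin CLO4 was the lowest at 0.28. In the F1 total against mid-parent, 0 genes of these 4 lists were called, beside 0.106% of all genes called higher. Counts in lists this small are given as a description.

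Across the 11 libraries, the genes other than members whose log2 level was most like the mean of the 8 listed members were AT3G04470 (r = 0.946), AOS (0.937), AT1G77680 (0.936), GAD2 (0.933) and LOG2 (0.931), out of 10580 genes. These are Pearson correlations over libraries of 5 groups, given as a description. RD29A was at 0.923 by the same measure and RD22 at 0.31. COR47 and ERD10 were the most alike of the member pairs, at 0.953, and COR15A and COR15B were at 0.583.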

How the data were processed

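The deposited RPKM values, 1 column per replicate and, for the allotetraploids, per allele, were used as the authors made them. The submitters' processing notes name TAIR 9. Neither the aligner nor the way reads were split by allele is stated in those notes or in the labels. Whole reads could not be recovered from the low values, so the depth is unknown. The F1 table lists 11017 genes, and the F8 and A. suecica tables list only totals above 2 RPKM. The labels have 5 samples, and the parents and F1 have 3 columns each. Deviations from the group means correlated at 0.281, 0.316 and 0.305 for same-numbered columns of A. arenosa and F1. Differently numbered columns gave -0.226 to -0.06, but centring within groups of 3 lowers these values, and a pairing of the columns was not tested. Same-numbered columns gave 0.005, -0.11 and 0.127 for A. thaliana and A. arenosa, and 0.54, -0.261 and 0.245 for A. thaliana and F1. A. thaliana replicate 3 and F1 replicate 2 gave 0.441. No label says what a number shares.

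One transcript was kept per gene (listed in all tables, then the highest mean). Genes of or within 5 kb of a ribosomal RNA unit were left out, and a gene was compared from 5 RPKM. Values were tested as log2(RPKM + 1) with limma 3.58.1 (R 4.3.3, trend), with Benjamini-Hochberg adjustment over all genes, after a check on simulated data. The parental difference was also set against the F1 allele ratio, the F1 total against mid-parent, and neighbours against each other. Python 3.11.15, numpy 2.4.6, pandas 2.3.3, matplotlib 3.10.9 and Biopython 1.88 served the rest. Places and sequences come from TAIR10.1 (RefSeq); the tables hold no coordinates.

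The members and lists were chosen with earlier results of these data known. The text names all members, and of each list the genes called and the highest and lowest, and the 5 genes most like the members. Alternatives changed the pseudocount, scaling, filter, transcript, trend, centring, replicate block or 1 column at a time. The comparison of F8 and A. suecica ratios with the F1 ratio was added after seeing the data.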

Additional observations from a re-analysis of the deposited data

Results flagged for a closer look

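Some allele ratios had opposite signs in different allotetraploids; none of these differences was tested, since F8 and A. suecica have 1 library each. The log2 allele ratio of RD29A, with the A. arenosa allele on top, was -0.966 in A. suecica, opposite to each F1 column and to F8. KIN2 was at -0.552 in A. suecica, also opposite to each F1 column and to F8. ERD10 was at -0.0118 in F8, close to even, and at -0.862 in A. suecica, both opposite to each F1 column. COR15A was at 0.874 in A. suecica and at -2.54 in F8, where the F1 columns had both signs. Groups of 3 columns were not searched for single outlying values.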

How the results depend on the processing

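Of the single values recomputed under the alternatives, 682 kept their direction and call, 25 with a test and 5 without changed sign, 10 lost and 6 gained a call, and 6 without a test crossed the 2-fold limit. The 5 changed with scaled columns: the F8 total minus F1 became -0.20 for COR47, -0.31 for ERD10 and -0.34 for RD22, and the total minus mid-parent became -0.0380 for RD22 in F8 and -0.0312 for RD29A in A. suecica. With the replicate block, KIN1 lost its call between the parents (adjusted p = 0.0630), 18 genes in place of 11 were called against mid-parent, and no other call of a member changed. That count was 6 with a pseudocount of 0.1 RPKM, 5 with scaled columns, 5 with the first listed transcript, 6 without trend, and 0 to 23 on leaving out 1 column. Genes called between the parents, 1897, became 1221 with scaled columns, 3152 with a filter of 1 RPKM, 2855 with none and 1045 to 3053 on leaving out 1 column. Neighbour pairs called, 985, became 2290 and 3346 under those filters and 405 to 1622 on leaving out 1 column, and pairs of F1 allele ratios, 811, became 0 to 635. Genes whose parental difference departed from the F1 ratio, 55, became 9 to 766. On leaving out 1 column, members called were 1 to 6 between the parents and 3 to 5 in the F1, and member pairs 1 to 3. In F8, RD20 lost its 2-fold shift from the F1 ratio with a pseudocount of 0.1 RPKM or scaled columns (1 member in place of 2), and 2 members in place of 1 passed 2-fold for the total with that pseudocount. RD29B lost its call when centred on the median (2.61, adjusted p = 0.0535).

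Signs changed for values that were not called. The first listed transcript gave COR15A -0.61 between the parents and -0.63 for the parental difference minus the F1 ratio. Scaling gave RD20 -0.00802 and RD22 -0.35 for the latter, and KIN2 -0.41 between the parents, where centring gave -0.30. On leaving out 1 column, the F1 ratio ran from -0.0887 to 0.17 for COR15A and -0.0562 to 0.35 for COR15B. The F1 total minus mid-parent ran from -0.52 to 0.89 for RD20 and -0.30 to 0.43 for RD22. The parental difference ran from -0.55 to 0.69 for KIN2 and -0.20 to 1.73 for RD22. The parental difference minus the F1 ratio ran from -0.0221 to 1.55 for COR15A, -0.70 to 0.27 for COR47, -1.01 to 0.23 for KIN2, -0.0819 to 0.96 for RD20, -0.91 to 1.02 for RD22 and -0.94 to 0.70 for RD29A. The dehydrin pair in the F1 ran from -0.57 to 0.0104. The cause was not tested. Depth is unknown, so the precision of low values such as RD29B cannot be given.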

Other observations

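The isoforms of RD20 were listed at 230.0 and 101.6 RPKM in A. suecica. MYB60, a guard cell factor, had an F1 allele ratio of 1.00 on the log2 scale (limma adjusted p = 0.0384).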
